A study of Mus musculus with 4 samples.

Results

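Neural stem cell (NSC) lines multiply in culture, and at any moment part of the cells of a line are copying their DNA or dividing while the others are between divisions. The cells described here are those of the CN4 line that carried reads of both *Mki67* and *Top2a*. *Mki67* encodes the coat protein of mitotic chromosomes that serves as the usual marker of cycling cells (mouse chr7:135689784-135716361, minus strand, GRCm38). *Top2a* encodes the DNA topoisomerase that untangles replicated chromosomes (chr11:98992943-99024189, minus strand). Both are protein-coding genes. The 2 genes were the rule that selected the cells, so their own levels are a description and not a finding. The deposited values are called reads here, since the sources used do not say whether they are sequencing reads or molecules counted by their identifiers. Of the 3448 CN4 cells of the deposited normalized table, 1629 had reads of both genes (double-positive cells), 1008 had reads of neither (double-negative cells), and 811 had reads of only one, 298 of *Mki67* and 513 of *Top2a*. The normalized tables of all 4 lines held 15255 cells.

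The 4 lines were derived from mouse 129/Sv epiblast stem cells and all grew with EGF and FGF2, each at 10 ng/ml. CN4 received 2 µM CHIR99021, an agonist of Wnt signaling, XN4 and XN1 received 10 µM XAV939, a Wnt antagonist, and KN1 received neither compound. Each line was sequenced as 1 library of growing cells that had been dissociated with Accutase and kept in CellCover in the cold before capture. Comparisons between double-positive and double-negative cells were therefore made within 1 library of 1 line. Cells are not replicates, so no test was possible within a line, and a test paired by line was not made. Intervals are exact binomial 95% intervals that hold counting error alone.

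The cell cycle runs through G1, S phase, in which DNA is copied, G2, and mitosis. Genes for DNA copying are transcribed at the entry into S phase, largely under E2F factors. Genes for chromosome condensation, the spindle, and cell cleavage follow in late S phase and G2, under the B-Myb and FoxM1 complexes that bind a short promoter element, the cell cycle genes homology region (CHR). In resting cells, the DREAM complex occupies many of the same promoters and keeps the genes off.

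The share of double-positive cells depended on how deeply a cell was read. Among CN4 cells with 975 to 3199 reads it was 22.1% (17.4% to 27.3%), and among those with 9000 reads or more it was 66.7% (63.0% to 70.2%). Double-positive cells had a median of 7476 reads and 3078 genes, against 5419.5 reads and 2477.5 genes in double-negative cells. Whether the double-positive cells held more RNA or were selected by their depth cannot be told apart. The further comparisons of genes were therefore made after each cell was thinned at random to 3200 reads, unless stated otherwise. This left 1565 double-positive and 852 double-negative cells, with the groups still defined by the full reads. At 3200 reads, 39.9% of the CN4 cells (38.2% to 41.7%) still had reads of both genes, against 47.2% (45.6% to 48.9%) of the cells as deposited. The same rule selected 17.6% of the XN4 cells, 20.8% of XN1, and 18.9% of KN1 as deposited, and 14.6%, 19.2%, and 17.3% at 3200 reads. The CN4 share was the highest of the 4 lines on both scales, and no replicate library was at hand for any of them. KN1 cells had a median of 833 genes at 5862 reads, against 2824 genes at 6572 reads in CN4. Equal reads are therefore not equal detection in KN1, and what this contributes to its lower share was not tested. In the plot of shares by depth and by line, the bars of CN4 rise across the depth groups, and the CN4 intervals lie above those of the other lines.

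**Figure D1:**
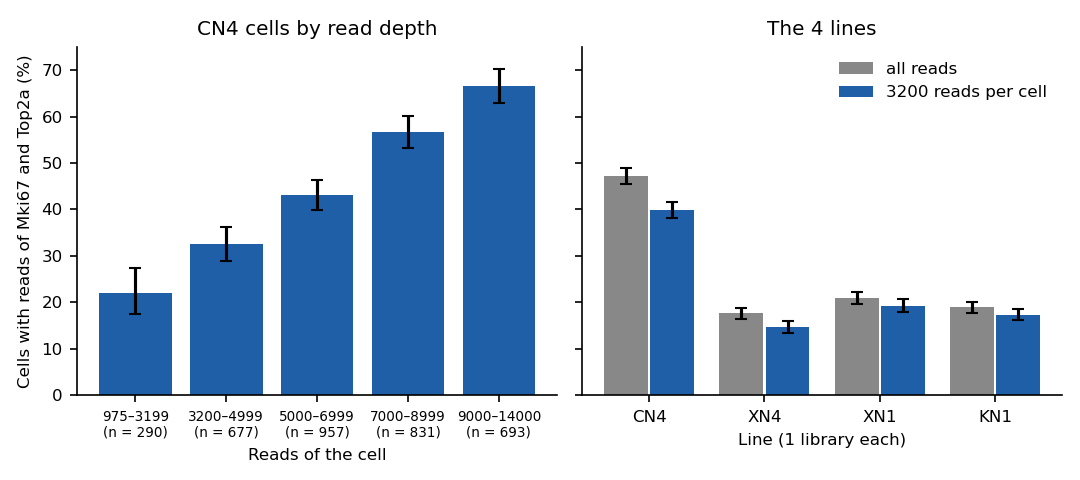
Percentage of cells with reads of both *Mki67* and *Top2a*, by the total reads of the cell in CN4 (left; n, cells) and by line (right; gray, as deposited; blue, at 3200 reads per cell). Error bars are exact 95% binomial intervals. The CN4 share climbs from 22.1% to 66.7% with depth, and at 3200 reads it is 39.9% in CN4 against 14.6% to 19.2% in the other lines.

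In the double-positive cells, *Mki67* averaged 6.83 reads and *Top2a* 12.1 reads per cell before thinning, with maxima of 48 and 80. Of 10174 other genes with reads in at least 2% of the thinned cells, 880 (8.65%) had a mean at least 1.5 times higher in double-positive than in double-negative cells, and 949 (9.33%) had a mean at least 1.5 times lower. The median of all 10174 genes was -0.05 on the log2 scale. These shares and this median are the background for the counts of every list below. The list with the highest median ratio was that of the G2-M markers, and the lists with the lowest were the immediate early genes and the astrocyte genes. Of the 880 higher genes, 181 belonged to 9 lists of genes for DNA copying and division, and of the 949 lower genes 0 did. These were the lists of G2-M markers, S phase markers, mitotic kinases, kinetochore, spindle, condensin and cohesin, cycle transcription regulators, recombination, and nucleotide synthesis. The list of G1 regulators is not among them, and 8 of its genes were lower.

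The name "dividing cells" was set beside 18 G2-M markers other than the genes of the rule. The authors count both rule genes among those of G2 to M. Higher G2-M markers are thus built into the rule and are a description, not an independent check. All 18 passed the 2% filter, which pools both groups, and some, such as *Hmmr* and *Aurka*, were under 2% in double-negative cells. All 18 were at least 1.5 times higher in double-positive cells, with a median ratio of 24.9 and a range of 7.70 to 41.4. *Hmmr*, which encodes a spindle protein, was read in 43.7% (41.2% to 46.2%) of double-positive and 1.64% (0.901% to 2.74%) of double-negative cells. *Ccnb1*, the cyclin that drives entry into mitosis, was read in 51.3% against 3.17%, and *Cdk1*, its kinase, in 59.9% against 7.75%. *Hmgb2*, a chromatin protein, was the most widely read of the list, in 90.8% (89.3% to 92.2%) against 21.5% (18.8% to 24.4%). The groups differed in every gene of the list by more than the counting intervals. The double-negative shares of the list ran from 0.704% for *Aurka* to 21.5% for *Hmgb2*; how much of this was RNA released from other cells was not tested.

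Promoters of 6 of these genes are printed because the same short elements recur in them. The sequences are from RefSeq (GRCm38.p6), from 250 bases before to 50 bases after the annotated start, and run 5′ to 3′ along the gene. They lie at chr11:40733388-40733687 (minus strand, *Hmmr*), chr2:127831810-127832109 (minus, *Bub1*), chr7:122159185-122159484 (plus, *Plk1*), chr13:100786437-100786736 (minus, *Ccnb1*), chr4:124936868-124937167 (minus, *Cdca8*), and chr3:135212313-135212612 (plus, *Cenpe*). Capitals mark the CHR (TTTGAA or TTCGAA) and the CCAAT box (CCAAT), each on either strand, so that ATTGG is a CCAAT box on the opposite strand. In *Cdca8* the CHR and a CCAAT box overlap by 1 base, and its RefSeq start lies 2394 bases from the start that GENCODE gives the gene, against 4 to 84 bases for the others.
Hmmr: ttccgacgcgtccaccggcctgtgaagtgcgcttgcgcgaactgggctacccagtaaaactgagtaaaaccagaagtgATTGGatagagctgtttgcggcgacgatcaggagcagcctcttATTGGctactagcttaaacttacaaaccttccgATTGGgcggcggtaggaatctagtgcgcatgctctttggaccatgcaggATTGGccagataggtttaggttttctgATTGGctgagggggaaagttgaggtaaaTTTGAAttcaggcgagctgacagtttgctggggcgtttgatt
Bub1: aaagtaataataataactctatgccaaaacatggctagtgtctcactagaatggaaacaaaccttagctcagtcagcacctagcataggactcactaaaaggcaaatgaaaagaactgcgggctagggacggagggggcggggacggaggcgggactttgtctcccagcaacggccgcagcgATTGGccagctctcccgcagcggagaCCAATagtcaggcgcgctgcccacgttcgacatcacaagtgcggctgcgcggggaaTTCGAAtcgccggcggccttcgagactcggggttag
Plk1: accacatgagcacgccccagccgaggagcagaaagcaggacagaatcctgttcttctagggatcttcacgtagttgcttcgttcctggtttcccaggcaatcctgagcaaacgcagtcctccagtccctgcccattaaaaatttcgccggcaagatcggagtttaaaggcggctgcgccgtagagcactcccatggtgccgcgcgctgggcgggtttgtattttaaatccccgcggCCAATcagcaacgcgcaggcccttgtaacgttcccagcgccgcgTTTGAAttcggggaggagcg
Ccnb1: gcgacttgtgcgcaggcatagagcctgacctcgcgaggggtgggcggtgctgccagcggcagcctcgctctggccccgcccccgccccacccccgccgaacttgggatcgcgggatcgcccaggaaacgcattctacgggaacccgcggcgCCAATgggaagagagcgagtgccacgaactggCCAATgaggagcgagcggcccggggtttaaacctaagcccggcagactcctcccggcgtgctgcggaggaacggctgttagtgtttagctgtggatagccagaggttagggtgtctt
Cdca8: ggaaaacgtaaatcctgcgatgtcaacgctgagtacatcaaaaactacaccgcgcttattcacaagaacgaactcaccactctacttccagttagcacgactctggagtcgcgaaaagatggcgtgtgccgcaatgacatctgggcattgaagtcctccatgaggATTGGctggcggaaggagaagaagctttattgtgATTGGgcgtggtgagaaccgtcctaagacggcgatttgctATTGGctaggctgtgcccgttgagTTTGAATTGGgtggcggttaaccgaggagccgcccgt
Cenpe: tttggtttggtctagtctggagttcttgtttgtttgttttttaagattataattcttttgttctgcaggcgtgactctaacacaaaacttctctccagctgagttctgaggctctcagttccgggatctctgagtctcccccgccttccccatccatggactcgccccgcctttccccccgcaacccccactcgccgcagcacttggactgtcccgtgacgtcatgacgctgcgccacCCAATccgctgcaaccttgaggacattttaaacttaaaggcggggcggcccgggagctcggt

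*Hmmr* had a ratio of 41.4 and 1 CHR with 5 CCAAT boxes, and its CHR began 8 bases after the start. *Bub1*, a spindle checkpoint kinase with a ratio of 33.3, had 1 CHR of the TTCGAA form and 2 CCAAT boxes. *Plk1*, the Polo-like mitotic kinase, with a ratio of 31.6, had 1 of each. *Cdca8*, a subunit of the chromosomal passenger complex, with a ratio of 29.1, had 1 CHR and 4 CCAAT boxes. *Ccnb1* (30.7) and *Cenpe* (26.1), a kinetochore motor, held CCAAT boxes and neither of the CHR spellings searched, TTTGAA and TTCGAA, in this window. Other spellings of the CHR were not searched, so these genes may still hold one. Of the 18 markers, 16 had a promoter in the table; 12 of the 16 held a CHR and 14 a CCAAT box. Over 8068 promoters of all genes tested, the shares were 13.2% and 39.9%. Both elements together were in 12 of the 16 promoters and in 5.95% of all.

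The elements were more frequent with a larger ratio. Among 699 promoters of the genes at least 1.5 times higher, 28.0% held a CHR and 56.4% a CCAAT box. Among 81 promoters of the genes at least 10 times higher, 70.4% held a CHR, 66.7% a CCAAT box, and 51.9% both. Among 718 promoters of the lower genes, the shares of the CHR and the CCAAT box were 9.89% and 34.5%. An E2F site (on either strand, spelled as TTCCCGC or alternatively as TTGGCGC, the further accepted spellings being TTCGCGC and alternatively TTGCCGC) followed another order. It was in 56.0% of the 25 S phase marker promoters, in 18.8% of the 16 G2-M marker promoters, in 33.0% of the higher genes, and in 1530 of all 8068. The TATA box (TATAAA, either strand) was in 5.29% of the higher, 8.08% of the lower, and 5.92% of all promoters. A match describes the letters only, and binding was not measured. The plot of motif shares sets these gene groups beside each other.

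**Figure D2:**
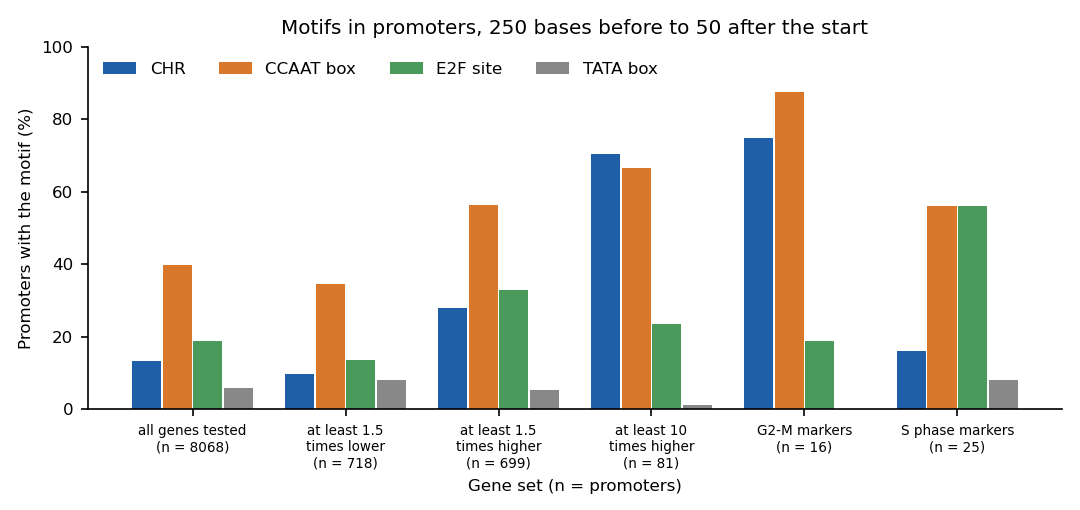
Percentage of promoters that hold each motif (vertical axis) for gene groups of the CN4 comparison (horizontal axis; n, promoters). The CHR (blue) is in 13.2% of all promoters, 70.4% of those of genes at least 10 times higher, and 12 of the 16 of the G2-M markers, while the E2F site (green) is most frequent among the S phase markers, at 56.0%.

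The protein kinases, cyclins, and ubiquitin ligase factors of mitosis were higher in 29 of 31 genes of their list, with a median ratio of 14.0 and none lower. *Nek2*, a centrosomal kinase, was read in 14.7% of double-positive and 0.352% of double-negative cells. *Aurkb*, the kinase of the chromosomal passenger complex, was read in 23.4% against 1.06%, and *Ccna2*, the cyclin of S phase and G2, in 70.5% against 5.28%. *Cdc20*, the activator of the anaphase-promoting complex, was read in 33.2% against 1.64%. The 2 genes of the list that stayed under 1.5 were *Cdc25a* (1.45) and *Anapc1* (1.30).

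Of 37 kinetochore and centromere genes, 35 were higher, with a median ratio of 14.2. *Cenpi*, a subunit of the inner kinetochore, had a ratio of 59.3, but it rests on 3 reads in the double-negative cells and has an interval of 20.1 to 289. *Nuf2* and *Ndc80*, of the complex that holds microtubules, had ratios of 24.0 and 23.0. *Cenpa*, the centromeric histone, had 8.89. *Cenpt* (1.48) and *Zwint* (1.25) stayed under 1.5, and *Zwint* was read in 64.7% of double-positive and 55.9% of double-negative cells.

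All 34 spindle and cytokinesis genes were higher, with a median ratio of 19.1. *Kif2c*, a motor that shortens microtubules, was read in 24.7% against 0.587% of cells. *Prc1*, which bundles the midzone of the anaphase spindle, was read in 63.0% against 4.34%. *Aspm*, a spindle pole protein known from neural progenitors, was read in 34.1% against 1.29%. Tubulins had smaller ratios than these, 11.1 for *Tuba1c*, 4.31 for *Tubb4b*, 3.93 for *Tuba1b*, and 2.45 for *Tubb5*, and the microtubule binder *Stmn1*, with 2.34, was the lowest of the list.

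The condensin and cohesin list held a wide range of ratios. *Esco2*, the acetyltransferase that locks cohesin onto newly copied DNA, had a ratio of 61.5 (20.9 to 300). That ratio rests on 339 reads in double-positive and 3 in double-negative cells. In this draw it was the highest of all genes read in at least 10% of double-positive cells. Over 9 alternative settings it ran from 31.5 to 225, while *Nek2* was never under 39.6, so the rank depends on the setting. The condensin subunits ran from 1.94 for *Ncaph2* and 3.64 for *Ncapd3* through 5.67 for *Smc4* and 9.15 for *Smc2* to 24.0 for *Ncapg*. The core cohesin subunits had ratios of 3.27 for *Rad21*, 1.76 for *Smc1a*, and 1.53 for *Smc3*. The cohesin loader *Nipbl* had 0.992 and the release factor *Wapl* 1.06. In all, 13 of 19 genes were higher and 0 lower.

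S phase genes were also higher, by less. Of 29 S phase markers, 28 were at least 1.5 times higher, with a median ratio of 3.23, and *Ung*, a uracil glycosylase, stood at 1.39. *Tk1*, thymidine kinase, had the highest ratio of the list, 10.7 (6.99 to 17.3), and was read in 20.8% of double-positive against 1.76% of double-negative cells. *Rrm2*, a subunit of ribonucleotide reductase, was read in 52.7% against 8.45%. *Pcna*, the sliding clamp of DNA polymerase, was read in 63.3% against 32.6%, and the *Mcm2* to *Mcm7* helicase genes had ratios of 2.00 to 3.54. Double-negative cells thus carried *Pcna* far more often than *Ccnb1* or *Hmmr*. The nucleotide synthesis list (21 genes, 4 of them also S phase markers) had 11 higher and 0 lower genes. Among purine synthesis genes, *Gart* (0.962), *Adss* (1.00), *Adsl* (1.01), and *Atic* (1.01) were near 1. *Ppat* (1.30), *Paics* (1.32), and *Impdh2* (1.44) stood higher but under 1.5.

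**Figure D3:**
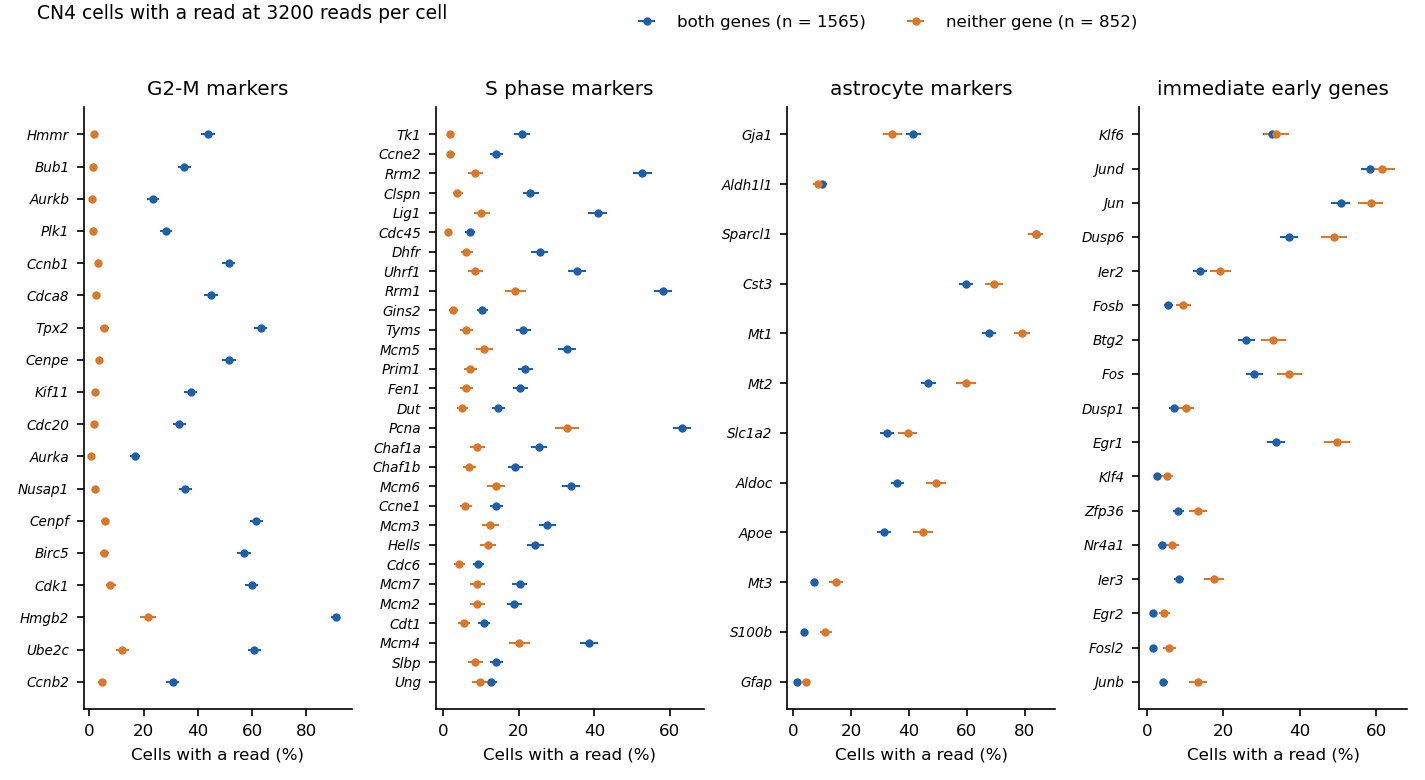
Percentage of CN4 cells with a read of each gene at 3200 reads per cell, for double-positive (blue, n = 1565) and double-negative cells (orange, n = 852), ordered by the ratio of mean reads. Bars are exact 95% binomial intervals. All 18 G2-M markers lie apart, S phase markers such as *Pcna* (63.3% and 32.6%) overlap in range between genes but not within most genes, and most astrocyte and immediate early genes are read in fewer double-positive cells.

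Genes that repair broken replication forks were higher in 21 of 22 genes that passed the filter, with a median ratio of 5.41. *Fancd2* of the crosslink repair pathway had the highest ratio of the list, 12.5 (6.44 to 27.6). The damage kinases *Atm* and *Atr* differed less, with 1.55 for *Atm*, and *Atr* was read in 8.37% against 7.63% of cells. Among 21 transcription regulators of the cycle, 14 were higher. *Foxm1* (13.5) was highest, followed by *E2f7* (10.3) and *E2f8* (6.93), both repressors, and *Mybl2* (6.35), which encodes B-Myb. The E2F factors of resting cells, *E2f4* (1.05) and *E2f6* (1.17), were under 1.5. Of the 13 nuclear envelope genes, 9 were higher. *Lmnb1*, the B-type lamin, was read in 70.2% against 25.6%, and *Lmna*, the A-type lamin, in 5.05% against 5.99%.

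Chromatin proteins were higher by smaller amounts, in 10 of 20 genes of the list, with *H2afx* at 9.07, *H2afz* at 2.41, *Hmgn2* at 2.01, and *Hmgb1* at 1.77. The genes of the replication-independent histone H3.3, *H3f3a* and *H3f3b*, had 0.885 and 1.34. Of 26 clustered histone genes in the table, 6 passed the filter. *Hist1h1b* had a ratio of 18.7 and *Hist1h1e* 5.38, whereas *Hist1h2bc* had 0.476 and *Hist3h2a* 0.529. The ratio of *Hist1h1b* rests on 103 reads in double-positive and 3 in double-negative cells and has an interval of 6.22 to 92.1. The capture was by polyA tails, which most transcripts of clustered histone genes lack.

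The regulators of G1 went both ways, since 5 of 27 were higher, 8 lower, and 14 neither. Over all genes tested, 8.65% were higher and 9.33% lower. The median ratio of the list was 0.814. The 2 highest were inhibitors of the cyclin D kinases, *Cdkn2d*, read in 14.2% (12.6% to 16.1%) against 2.70% (1.72% to 4.02%) of cells, and *Cdkn2c*, read in 33.0% (30.6% to 35.4%) against 7.63% (5.94% to 9.62%). Their ratios were 5.99 and 5.45 in CN4, 2.77 and 1.58 in XN4, and 4.47 and 4.24 in XN1. *Cdkn2b*, of the same family, went the other way in CN4, read in 2.75% against 7.51%, with a ratio of 0.307, and in XN4 (0.335) and XN1 (0.215) as well. *Cdkn1b*, which encodes p27, had 1.69. The inhibitor genes *Cdkn1c* (0.564), *Cdkn2a* (0.633), and *Cdkn1a* (0.644) were lower in CN4. They were past 1.5 in 7, 8, and 5 of 9 alternative settings. The D-type cyclins, which carry growth factor signals into the cycle, had lower means in double-positive cells, with ratios of 0.585 for *Ccnd1* and 0.552 for *Ccnd2*. These cyclins were still read in 69.4% against 77.6% and in 85.5% against 90.4% of cells, so by the share of cells with a read neither reached 1.5-fold (0.894 and 0.946). *Ccnd3* (0.896), *Cdk4* (1.07), and *Cdk6* (0.873) were near 1. *Myc*, the growth regulator, had 0.501, and *Mxd4*, which encodes an antagonist of Myc, had 0.326, read in 16.2% against 38.7% of cells.

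Immediate early genes, which growth factors, stress, and cell dissociation induce within minutes, were lower in 14 of 17 genes, with a median ratio of 0.532 and none higher. *Junb* was read in 4.35% (3.39% to 5.48%) of double-positive and 13.3% (11.1% to 15.7%) of double-negative cells. *Egr1* was read in 33.8% against 49.6%, and *Fos* in 28.1% against 37.2%. *Jun* (0.688), *Jund* (0.831), and *Klf6* (0.893) stayed within 1.5.

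Glial genes were lower as well. Of 12 astrocyte genes that passed the filter, 9 were lower and 0 higher, with a median ratio of 0.577. *Gfap*, the astrocyte intermediate filament, was read in 1.34% of double-positive and 4.34% of double-negative cells. *S100b*, a calcium-binding protein of astrocytes, was read in 3.58% against 11.2%, *Apoe*, the lipid carrier, in 31.4% against 45.0%, and *Aldoc* in 36.0% against 49.3%. *Gja1* (1.09) and *Aldh1l1* (1.01) were near 1. Of 6 oligodendrocyte precursor genes, 3 were lower, with *Olig1* at 0.585 and *Lhfpl3* at 0.661 among them, while *Olig2* had 0.696. *Lhfpl3* was past 1.5 in 3 of 9 alternative settings and *Olig1* in 7. Whether fewer such cells or less RNA of these genes per cell gave the lower means cannot be told apart.

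**Figure D4:**
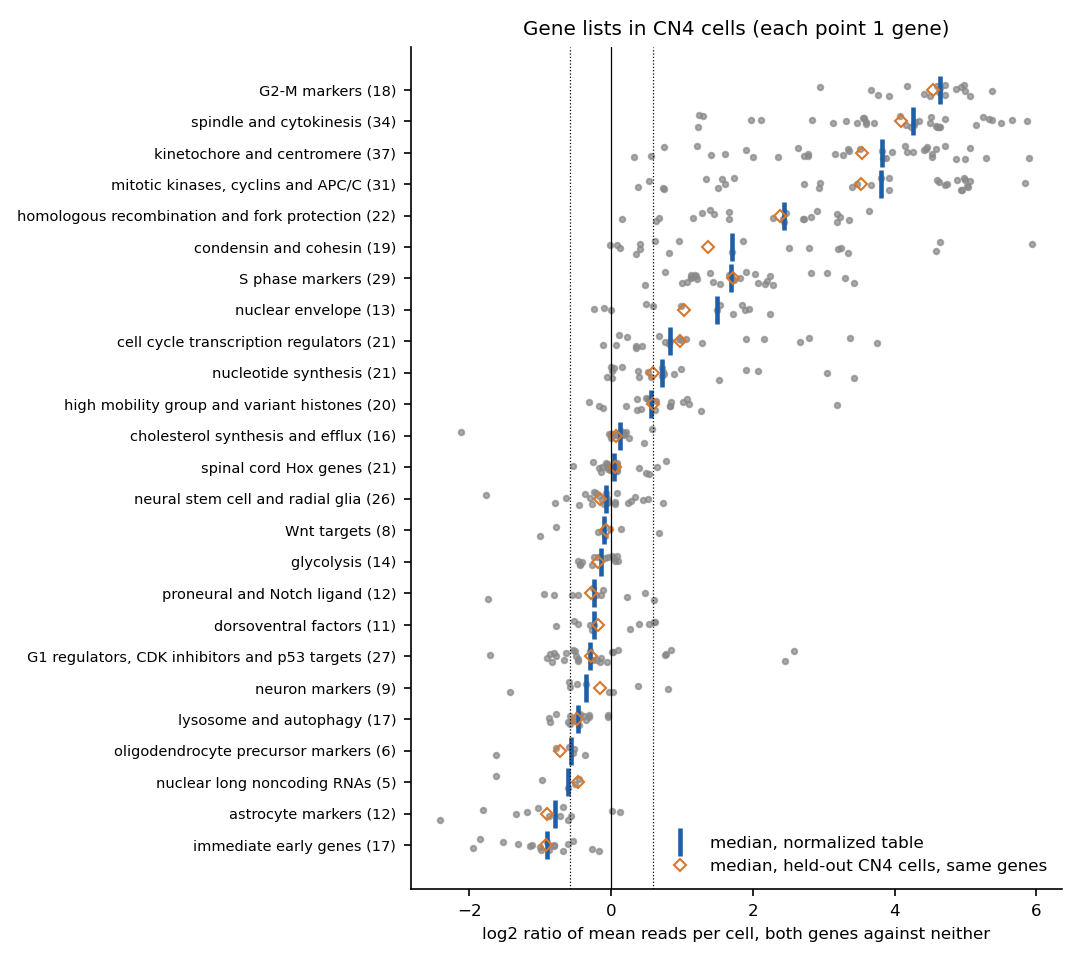
Log2 ratio of mean reads per cell, double-positive against double-negative CN4 cells at 3200 reads, for every gene that passed the 2% filter (gray points) in lists with at least 5 such genes (number in parentheses). Blue bars are list medians in the normalized table, orange diamonds those of the same genes in cells that table leaves out, and dotted lines mark 1.5-fold. The medians run from 4.64 for the G2-M markers to -0.91 for the immediate early genes.

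The general neural stem cell genes differed little. Of 26, 1 was higher, 3 lower, and 22 neither, with a median ratio of 0.955. *Sox2*, the core factor of neural progenitors, was read in 76.5% against 68.4% of cells with a ratio of 1.21, *Nes* had 1.27, *Vim* 0.817, *Fabp7* 0.892, and *Notch1* 1.04. The exceptions among them were the inhibitors of differentiation *Id4* (0.294) and *Id2* (0.578) and the gliogenic factor *Sox9* (0.646). *Id4* was read in 5.75% against 15.6% of cells. The 1 higher gene, *Prom1*, was read in 3.51% against 1.88% and reached 1.5-fold in 4 of 9 alternative settings.

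Of 12 proneural and Notch ligand genes that passed, 3 were lower, and the median ratio was 0.849. The antiproliferative gene *Btg2*, also an immediate early gene, had 0.570. The Notch ligands *Dll3* and *Dll1* were lower, with ratios of 0.300 and 0.520. *Dll3* moved to 0.601 at 5000 reads and to 0.783 with the double-negative cells weighted to the read depth of the double-positive cells in place of thinning, and *Dll1* moved to 0.794 and 1.10 under the same settings. Of 9 neuron genes that passed, 2 were lower, *Mapt* (0.373) and *Map2* (0.666), and 1 was higher, *Snap25* (1.75). *Map2* was past 1.5 in 3 of 9 alternative settings and *Snap25* in 5.

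The *Hox* genes, which set position along the spinal cord, differed little between double-positive and double-negative cells. Of 21 that passed, 2 were higher, a share near that of all genes tested (*Hoxc4*, 1.71, and *Hoxa2*, 1.57), 0 were lower, and the median ratio was 1.03. *Hoxa2* was past 1.5 in 5 of 9 alternative settings. *Hoxa5* was read in 39.2% against 35.9% of cells (ratio 1.06, 0.952 to 1.19), *Hoxb9* in 51.4% against 45.8% (0.959), and *Hoxc8* in 38.1% against 34.5% (0.969). Of 11 dorsoventral factors, *Irx5* (1.54) and *Pax6* (1.52) were higher and *Olig1* was lower. Of 8 Wnt target genes, *Axin2* (0.942), *Lgr5* (13.9% against 12.3% of cells), and *Nkd1* (0.990) were near 1 in these CHIR99021-treated cells, *Ccnd1* and *Myc* were lower, and *Apcdd1* (1.59, 0.851 to 3.17) was read in only 2.30% against 1.53%.

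The glycolysis and sterol lists were flatter. Of 14 glycolysis genes 0 were past 1.5 in either direction, with a median ratio of 0.911. Of 16 genes of sterol synthesis and efflux, 15 were within 1.5, among them *Hmgcs1* (1.06) and *Sqle* (1.05), and *Abca1* was lower. *Abca1*, the cholesterol exporter, had the lowest ratio of all genes read in at least 10% of double-negative cells, 0.231 (0.179 to 0.296), and was read in 4.47% against 14.9%. Of 17 lysosome and autophagy genes, 4 were lower, with *Ctsd* (0.544), *Ctsz* (0.549), and *Ctsl* (0.655) among them, and none higher. All 17 had ratios under 1, from 0.544 to 0.974, with a median of 0.726. Of 5 nuclear long noncoding RNAs, 3 were lower, *Neat1* (0.325), *Miat* (0.509), and *Pvt1* (0.655), and *Malat1* had 0.731. The median ratio of the 5 was 0.655. *Pvt1* was past 1.5 in 2 of 9 alternative settings, and *Miat* in 7. Before thinning, mitochondrial transcripts took a median of 14.7% of all reads in double-positive and 16.1% in double-negative cells. Ribosomal protein transcripts took 5.70% and 6.24%, and the quartiles overlapped for both.

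Markers of other cell types were then counted. Of 8 epiblast markers 0 passed the filter, and *Pou5f1* was read in 0.192% of double-positive cells and in 0 of 852 double-negative cells, which allows a share of up to 0.352% by the limit of 3 counts. Of 10 mesoderm markers, *Foxc1* passed, read in 10.5% against 14.8% of cells with a ratio of 0.599 (0.490 to 0.733), and of 9 neural crest markers *Ets1* passed, read in 14.4% against 13.5%. Of 14 connective tissue markers, 3 passed, the matrix genes *Fbn1* (16.5% against 14.1%), *Fn1* (12.5% against 8.10%), and *Col5a1* (6.20% against 5.63%). The collagens that define connective tissue cells were under the filter, but their reads lay mostly in double-negative cells. *Col1a1* had 4 reads in 4 double-positive cells and 134 reads in 7 double-negative cells, and *Col3a1* had 4 and 99 reads. *Col1a2* was read in 0.639% against 3.17% of cells, with 14 and 94 reads. *Dcn* had 6 and 21 reads, and *Postn* 0 and 12. The part of such cells in the lower immediate early, astrocyte, and other lists was not tested.

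The 15 genes with the highest and the 15 with the lowest ratios, among those read in at least 10% of the cells of the higher group, were chosen for their ratio and are given as a description. The highest, besides those named above, were *Depdc1a* (53.4), *Kif20a* (45.2), *Ckap2l* (40.2), *Kifc1* (35.6), *Spdl1* (35.4), *Cdc25c* (32.9), and *Espl1* (32.4). Of these, *Espl1* encodes separase, which cuts cohesin at anaphase, and *Kif20a* and *Kifc1* encode mitotic motors. *Depdc1a* and *Spdl1*, a dynein adaptor at the kinetochore, were in none of the lists. The lowest were *Abca1*, *Rasl11a* (0.233), *Junb*, *S100b*, *Id4*, *Mxd4*, *Atp2b4* (0.375), *Hbegf* (0.382), *Mt3* (0.395), *Cables1* (0.399), *Ier3* (0.402), *Pdcd4* (0.403), *Pltp* (0.404), *Scamp5* (0.407), and *Nmnat2* (0.412). *Pltp* transfers phospholipids between lipoproteins, *Hbegf* is an EGF family ligand, and *Pdcd4* is an inhibitor of translation. No gene of the lowest 15 belonged to the 9 lists for DNA copying and division.

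Double-positive cells differed widely among themselves. The 18 G2-M markers together gave a median of 18 reads per cell in double-positive cells, with quartiles of 8 and 30, and a median of 1 in double-negative cells, with quartiles of 0 and 2. The S phase markers gave medians of 9 (4 to 18) and 2 (1 to 4). Across the 1565 double-positive cells of this library, which share its depth and capture, cells with more G2-M reads had fewer S phase reads (Spearman's rho -0.28), whereas across the double-negative cells both rose together (0.21). Of the double-positive cells, 61.8% had more G2-M than S phase reads, and 1.34% had no G2-M read at all, against 48.8% of the double-negative cells. The plot of S phase against G2-M reads shows the double-positive cells as an arc from high S phase reads to high G2-M reads, and the double-negative cells near the origin with a tail along the S phase axis.

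**Figure D5:**
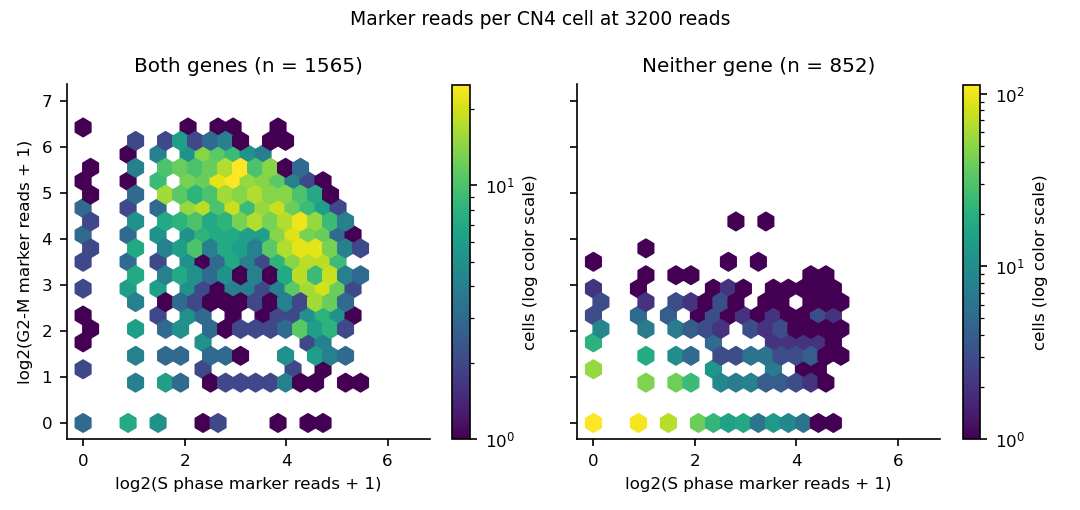
Reads per cell of the S phase markers (horizontal, log2 of reads + 1) and the G2-M markers (vertical, same scale) in double-positive (left, n = 1565) and double-negative CN4 cells (right, n = 852), at 3200 reads per cell. Color gives the number of cells on a log scale. The double-positive median is 18 G2-M and 9 S phase reads, the double-negative median 1 and 2.

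The marker lists followed the level of the rule genes differently. Cells were grouped by their thinned reads of *Mki67* plus *Top2a*, as 0, 1, 2 to 3, 4 to 7, and 8 or more. The authors count both genes among those of G2 to M. A climb of the G2-M markers with them is thus built into the grouping and is a description, not a finding. The mean of G2-M reads climbed through these groups, from 1.52 and 4.47 to 8.59, 17.4, and 30.0 per cell. The mean of S phase reads climbed from 4.39 and 8.03 to 11.2 and 12.9 and was 11.2 in the last group. At the edge of the rule, the 57 double-positive cells with 1 read of each gene before thinning had a mean of 5.19 G2-M reads, and the 337 cells with 1 read of only one gene had 2.33. The 1240 double-positive cells with at least 2 reads of each had 23.7. The 211 genes of the 9 lists for DNA copying and division took 3.34% of the reads of double-positive and 0.865% of those of double-negative cells.

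The rule was then applied to the 14709 CN4 cells that the normalized table leaves out, which come from the same library and are not a biological replicate. By the full reads, it selected 7827 (53.2%) of them. These cells included 2553 with more than 3999 genes, the highest number in the normalized table, and 85.2% of those were double-positive; among the 12156 within that limit the share was 46.5%. Doublets were not called. Of 10190 genes, 792 (7.77%) were at least 1.5 times higher and 814 (7.99%) at least 1.5 times lower in the double-positive left-out cells. Of the 880 genes higher in the normalized table, 658 were past 1.5 in the left-out cells and 847 were on the same side of 1. Of the 949 lower genes, the numbers were 526 and 925. Gene by gene, all 18 G2-M markers, the 28 S phase markers, the 9 astrocyte genes, and the 14 immediate early genes that were past 1.5 in the normalized table were past it in the same direction in the left-out cells. Other lists lost calls. Of the 14 higher cycle regulators 11 were again past 1.5, of the 9 higher nuclear envelope genes 8, and of the 4 lower lysosome genes 2. The median log2 ratio of the lysosome and autophagy list was -0.49 in the left-out cells, against -0.46 in the normalized table. *Pax6* (1.44), *Hoxc4* (1.42), *Atm* (1.44), *Prom1* (1.10), and *Apcdd1* (1.15) were no longer past 1.5 on the higher side, nor were *Sox9* (0.672), *Map2* (0.680), *Foxc1* (0.682), *Ctsz* (0.721), and *Pvt1* (0.768) on the lower. *Esco2* had 45.0, *Hmmr* 31.2, *Cenpi* 11.7, *Cdkn2c* 5.31, *Cdkn2d* 3.51, *Junb* 0.334, *Abca1* 0.223, and *Snap25* 0.990 in the left-out cells, so that *Snap25* did not keep its direction. Of the 15 highest and 15 lowest genes named above, all 30 kept their side of 1, and 11 moved by more than 1.5-fold, all toward 1. These were *Cenpi*, *Kif2c* (29.1), *Nek2* (35.4), *Depdc1a* (32.8), *Kifc1* (16.1), *Spdl1* (12.2), *Bub1*, *Cdc25c* (8.55), *Espl1* (15.1), *Rasl11a* (0.371), and *Scamp5* (0.635).

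In the other 3 lines the same rule gave the following, with no test between lines. In XN4, 12.6% of the genes were at least 1.5 times higher and 15.4% lower in double-positive cells, in XN1 12.8% and 12.1%, and in KN1 10.3% and 9.61%. All G2-M markers that passed were past 1.5, 18 in XN4, 18 in XN1, and 17 in KN1, with median log2 ratios of 5.58, 5.46, and 2.17, against 4.64 in CN4. *Hmgb2* was read in 90.8% of double-positive and 21.5% of double-negative cells in CN4, 83.5% and 14.7% in XN4, 86.8% and 13.3% in XN1, and 36.3% and 10.2% in KN1. *Pcna* was read in 63.3% and 32.6% in CN4, 38.5% and 8.49% in XN4, 53.8% and 15.5% in XN1, and 8.10% and 3.21% in KN1. CN4 thus had the highest double-negative share of both genes. For the S phase markers the median log2 ratio was 1.69 in CN4, above the 0.59 of KN1, where 13 of 25 were past 1.5, and below XN4 (2.78) and XN1 (3.14). KN1 cells had a median of 833 genes, against 2824 in CN4, and what this lower complexity contributes to the smaller ratios was not tested.

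Among the lower lists, immediate early genes were lower in 9 of 18 genes in XN4, 9 of 18 in XN1, and 1 of 8 in KN1. Astrocyte genes were lower in 4 of 8, 12 of 14, and 0 of 8. The ratio of *Apoe* was 0.442 in CN4, with 0.426 (XN4), 0.368 (XN1), and 0.968 (KN1) in the others. *Abca1* had 0.231, 0.216, and 0.263 in the first 3 and did not pass the filter in KN1, and *Mxd4* had 0.326, 0.400, 0.268, and 0.220 in the 4 lines. *Ccnd2* had 0.552, 0.300, 0.313, and 0.690, and *Ccnd1* had 0.585, 1.14, 0.633, and 0.641, so that *Ccnd1* was not lower in XN4. Sterol genes differed in number in XN4, where 8 of 17 were higher, against 0 of 16 in CN4, 0 of 16 in XN1, and 1 of 15 in KN1. The normalized tables of CN4 and the other lines shared 14, 17, and 20 cell numbers with XN4, XN1, and KN1, of which 8, 11, and 9 were double-positive in CN4; these are numbers from separate libraries and do not mark the same cells.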

How the data were processed

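Single-cell RNA-seq was made by the authors with the BD Rhapsody whole transcriptome kit, 1 library per line. Per the file headers and values, the authors deposited natural log values for the normalized tables (log of 1 plus reads per 10000 of the cell) and, for CN4, read counts of all cells. The submitters' processing notes name Seurat 4.3.0 and the build mm10. The normalized tables leave out ribosomal protein and mitochondrial genes, whose shares were taken from the count table, and the CN4 one holds no cell with more than 3999 genes. Whole reads were recovered from the natural log values for 100% of the values, within 0.01 of a whole read. The aligner version of KN1 is not given in the sources used here.

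Cells were grouped by the deposited values of *Mki67* and *Top2a*, thinned to 3200 reads without replacement, and compared by the ratio of mean reads per cell. Genes with reads in at least 2% of the thinned cells of both groups together were kept, and 1.5-fold counted as a difference. Ratios have exact conditional 95% intervals and shares exact Clopper-Pearson intervals. The sources used here do not say whether the counts are reads or molecules after identifier correction; reads would not be independent molecules, and the intervals hold counting error alone. With 1 library per line no test between lines was made, and no p-value is given. The cells, gene lists and comparisons were chosen with earlier results of these data known. Named genes were list members that the text describes and the 15 genes with the largest ratio in each direction that were read in at least 10% of the higher group. Depth ranged from 975 to 13365 reads per CN4 cell, 22947874 in all. Cells of the CN4 count table outside the normalized table were analysed in the same way. The count tables of XN4 and XN1 were not used here, and doublets were not called. Some list genes are not reported here by name. Promoter sequences came from RefSeq tables of GRCm38.p6, and gene positions from GENCODE annotation of GRCm38. Steps were run with Python 3.11.15, NumPy 2.4.6, SciPy 1.17.1, pandas 2.3.3, and matplotlib 3.10.9 and were tested on simulated data. Other depths, filters, rules, and measures were tried as alternatives.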

Additional observations from a re-analysis of the deposited data

Results flagged for a closer look

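*Snap25*, a synaptic vesicle fusion gene, was higher in double-positive than in double-negative cells of CN4, with a ratio of 1.75 (1.28 to 2.42), and lower in those of KN1, with a ratio of 0.582 (0.474 to 0.710). It was read in 8.24% against 5.16% of the cells in CN4 and in 6.87% against 7.41% in KN1. The result is listed because the intervals of the 2 lines lie on opposite sides of 1. The difference between the lines was not tested, since each line had 1 library. In the CN4 cells outside the normalized table the ratio was 0.990.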

How the results depend on the processing

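The median log2 ratio of the G2-M markers ran from 4.04 to 5.12 and that of the S phase markers from 1.36 to 1.74 over 9 alternatives, all in the direction reported. The number of higher genes (880) changed to 2013 with no filter and 471 at 2-fold. The number of lower genes (949) changed to 2640 with no filter, 524 with a 5% filter, 189 at 2-fold, and 616 by the share of cells with a read in place of mean reads. With another seed for the thinning, 721 of the 880 higher and 665 of the 949 lower genes were again past 1.5, so single calls depend on the draw. *Cenpi*, with 3 reads in double-negative cells, had a log2 ratio of 5.89 and, with that seed, 4.27. Of the 262 list genes past 1.5, 206 remained so in all 9 alternatives, and *Dll1* (1.10) and *Miat* (1.01) were on the other side of 1 in one of them. For the 30 genes named by rank, 244 of 270 values stayed within the counting interval and 0 changed direction.

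The share of double-positive cells (47.2%) became 39.9% at 3200 reads, 37.1% with at least 2 reads of each gene, and 53.2% in the cells outside the normalized table. Among those with no more genes than the deepest cell of that table, an alternative chosen after seeing the data, it was 46.5%. Each line's library held both double-positive and double-negative cells, but no test paired by line was made. With 1 library per line, the cells of a line are not replicates. Genes read in few cells at 3200 reads are limited by depth.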
